A study of Mus musculus with 24 samples.

Results

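TRAJ28, TRAJ27, TRAJ26, TRAJ24, TRAJ23, TRAJ22 and TRAJ21 are 7 neighbouring joining (J) segments of the mouse T cell receptor alpha locus, taken here as a window of the J array by name. They are 7 of the 43 J columns in the deposited alpha chain (Tcra) tables, and the rule that picks them uses names and no measured value, although the window was proposed with earlier results of these data known. Each table held 117 V segments in rows against those 43 J segments, and a cell gave the percentage of the library in which that V and that J were joined. A member's share is the sum of its column.

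The libraries came from thymocytes of C57BL/6 mice, either wild type or deficient in Satb1, a chromatin-organising protein abundant in thymocytes, at 4 to 12 weeks of age in both genotypes. The knockout is written Satb1-/- in the sample labels and as a conditional knockout (Satb1cKO) in the series design, and neither names a driver of the deletion. Total RNA was copied by 5′ RACE, in which an adaptor is added to the 5′ end of each cDNA, and each receptor chain was amplified from that adaptor with a constant-region primer before paired-end sequencing. Of the 24 libraries of the series, 6 were alpha libraries, 3 per genotype, and all results here come from those 6. The labels do not say whether replicates were separate mice, so the p-values measure only the spread between these libraries. Satb1 and thymocyte marker genes are not measured by such tables, so neither the genotype nor the tissue label was checked against expression.

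An alpha chain is assembled when recombination joins 1 V segment to 1 J segment, deleting the DNA between them. The first joins use J segments at the 5′ end of the array and V segments near it, and further rounds on the same chromosome replace a join with one between a more upstream V and a more 3′ J, until a chain is selected or the cell dies. The J segment found in a thymocyte is therefore commonly read as a record of how far recombination has gone along the array. Each J segment codes for the end of the third complementarity-determining loop, which touches the antigen, and for the framework strand behind it.

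The 7 members lay within 7.186 kb on the plus strand of chromosome 14 (GRCm38, GENCODE M21), and TRAJ28 started 34.4 kb after TRAJ58, the first J column of an array that spanned 60.6 kb to the end of TRAJ2. All 7 are annotated as single-exon T cell receptor J genes, and each span below is the whole coding exon. TRAJ28 (ENSMUSG00000076901.1) is at chr14:54191661-54191725 and TRAJ27 (ENSMUSG00000076902.1) at chr14:54192303-54192361. After a gap of 2128 bp come TRAJ26 (ENSMUSG00000076903.1) at chr14:54194490-54194549, TRAJ24 (ENSMUSG00000076905.2) at chr14:54195638-54195700 and TRAJ23 (ENSMUSG00000076906.1) at chr14:54196081-54196140. TRAJ22 (ENSMUSG00000076907.1) is at chr14:54197248-54197307, and TRAJ21 (ENSMUSG00000076908.1) at chr14:54198790-54198846. TRAJ25, annotated between TRAJ26 and TRAJ24, is not analysed here.

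The exon sequences, read from GENCODE M21, show what a receptor gains from each choice of J. Capitals mark the stretch TTNGG, any 4 bases, GG on the coding strand, which encodes the conserved phenylalanine and the glycines that mark the end of the loop. The bases before the capitals supply the J part of the loop.
TRAJ28: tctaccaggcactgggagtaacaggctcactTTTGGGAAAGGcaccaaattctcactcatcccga
TRAJ27: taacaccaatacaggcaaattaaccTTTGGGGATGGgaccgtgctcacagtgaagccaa
TRAJ26: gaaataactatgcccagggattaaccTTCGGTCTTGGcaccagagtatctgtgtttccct
TRAJ24: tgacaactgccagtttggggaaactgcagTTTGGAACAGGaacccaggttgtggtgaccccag
TRAJ23: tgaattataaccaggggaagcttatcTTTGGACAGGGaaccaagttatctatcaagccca
TRAJ22: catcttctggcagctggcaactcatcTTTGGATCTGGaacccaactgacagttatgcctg
TRAJ21: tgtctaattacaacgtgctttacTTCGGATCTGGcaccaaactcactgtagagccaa
The motif was present in all 7 members and in 42 of the 43 J columns (97.7%). All 7 have 23 bases after it, so they differ in length only before it, from 23 bases in TRAJ21 to 31 in TRAJ28, with a median of 26 against 27 over the J columns that have the motif. The 2 least used members in wild type, TRAJ28 and TRAJ24, have the 2 longest stretches before the motif, 31 and 29 bases. GC content ran from 41.7% in TRAJ23 to 54.0% in TRAJ24.

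The libraries differed in resolution. The smallest value above 0 was 0.0158%, 0.0157% and 0.0241% in wild-type replicates 1 to 3, and 0.0180%, 0.0593% and 0.117% in knockout replicates 1 to 3. The tables used here give percentages and no counts, so depth is unknown. A library lists no value between 0 and its smallest step, so a rarer pair is listed there at 0 or at the step or above. The wild-type tables held 1978, 1969 and 1573 V–J pairs with a value above 0, and in the knockout there were 1380, 555 and 374. Knockout replicate 1 also shared pairs with wild-type replicate 1: of the 68 pairs of the window seen in that wild-type library and in no other wild-type library, 27.9% were present in knockout replicate 1, against 4.55% of the 66 private to wild-type replicate 2 and 13.0% of the 46 private to wild-type replicate 3. What this overlap contributes to the results was not tested. The window share, the calls, the ratios to neighbouring groups and the V parts are also given without both libraries numbered 1.

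Together the 7 segments made up 16.6%, 16.1% and 15.9% of the wild-type libraries and 6.50%, 3.26% and 3.75% of the knockout libraries. Wild-type libraries differed by less than 1 percentage point and lay near the 16.3% that 7 of 43 equally used columns would give. Every knockout library was lower, with knockout replicate 1 the closest to wild type. The mean was 16.2% ± 0.368 (SD, n = 3) in wild type and 4.50% ± 1.74 (n = 3) in the knockout, 3.60-fold lower, and ± stands for the SD of 3 libraries throughout. The exact two-sided permutation test gave p = 0.1 and an adjusted p of 0.16 over 8 single values, where 0.1 is the smallest p that 20 arrangements of 3 and 3 libraries allow. Without knockout replicate 1 the knockout mean was 3.51%, and without both libraries numbered 1 the share fell by 12.5 percentage points, against 11.7 with all libraries. Counting each V–J pair once, whatever its share, gave 15.9% ± 0.272 and 8.98% ± 3.88, so that it fell by 6.94 percentage points. All values are shares of one library's RNA, so fewer cells carrying a segment, less receptor RNA per cell and a rise of other segments cannot be told apart.

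**Figure D1:**
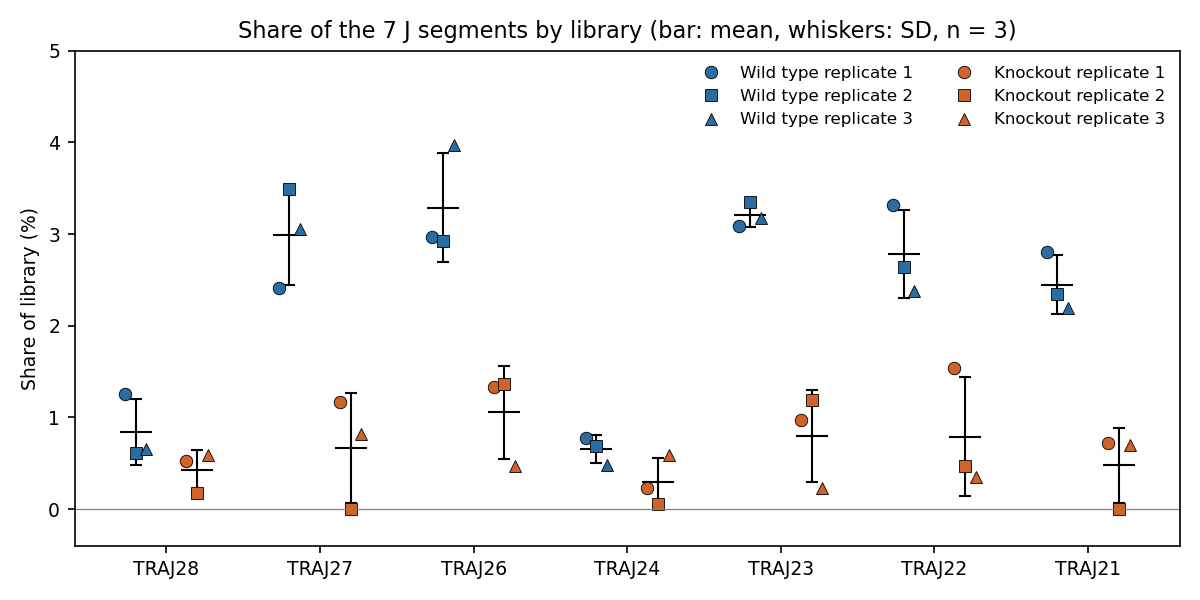
Share of each of the 7 J segments in percent of a library (vertical axis) by segment, for wild-type (blue) and knockout (orange) libraries; symbols mark the replicate, the horizontal bar the mean and the whiskers the SD of n = 3. TRAJ24 is the segment whose genotypes overlap, and TRAJ27 and TRAJ21 are at 0 in knockout replicate 2.

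In wild type the members fell into 2 levels. TRAJ26, TRAJ23, TRAJ27, TRAJ22 and TRAJ21, in that order, had means from 3.29% down to 2.45%, and the libraries of each neighbour in this order overlapped. TRAJ28 and TRAJ24 followed at 0.838% and 0.650%, below all libraries of TRAJ21 and overlapping each other. TRAJ26 was the sixth and TRAJ24 the last of the 43 J segments in wild-type mean share. In the knockout the means ran from 1.06% for TRAJ26 to 0.293% for TRAJ24 with every neighbour in the order overlapping, so the step between the 5 common and the 2 rare members was not resolved. TRAJ26 and TRAJ23 kept the first and second place.

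All 7 members had a lower mean in the knockout, and 3 passed the test: TRAJ26, TRAJ23 and TRAJ22. TRAJ26 made up 2.96%, 2.93% and 3.97% of the wild-type libraries and 1.34%, 1.36% and 0.469% of the knockout libraries. Every knockout library lay below every wild-type library, and knockout replicate 3 was the lowest. The mean fell from 3.29% ± 0.593 to 1.06% ± 0.509, a log2 fold change of -1.76 (SE 0.49) with an adjusted p of 0.0353 in limma, fitted over all 43 J segments on log2(percent + 0.0157).

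TRAJ23, the steadiest member across wild-type libraries, stood at 3.09%, 3.35% and 3.18% there and at 0.974%, 1.19% and 0.234% in the knockout. The genotypes did not overlap, and knockout replicate 3 was again the lowest. Its mean fell from 3.21% ± 0.133 to 0.798% ± 0.500 (log2 fold change -2.27, SE 0.64, adjusted p = 0.0353, limma). TRAJ22 stood at 3.31%, 2.64% and 2.38% in wild-type libraries, against 1.53%, 0.474% and 0.352% in knockout libraries. Here knockout replicate 1 was more than 3 times as high as the other knockout libraries, and still below wild type. The mean fell from 2.78% ± 0.480 to 0.787% ± 0.650 (log2 fold change -2.08, SE 0.59, adjusted p = 0.0353, limma).

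TRAJ27 and TRAJ21 had the largest falls in mean, 4.49-fold and 5.15-fold, and did not pass. TRAJ27 stood at 2.41%, 3.49% and 3.06% in wild type, compared with 1.17%, 0 and 0.821% in the knockout. TRAJ21 stood at 2.81%, 2.34% and 2.19% in wild-type libraries, against 0.722%, 0 and 0.703% in knockout libraries. Both were listed at 0 in knockout replicate 2, whose other values go down to 0.0593%, and neither overlapped between genotypes. That library set the spread of both: the limma values were -3.57 (SE 1.71, adjusted p = 0.115) for TRAJ27 and -3.59 (SE 1.58, adjusted p = 0.0952) for TRAJ21. Without knockout replicate 2 they were -1.57 (adjusted p = 0.0338) and -1.75 (adjusted p = 0.0183). With the larger pseudocount of 0.117% they were -2.56 for each (adjusted p = 0.0310 and 0.0178).

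The 2 rare members differed least. TRAJ28 stood at 1.25%, 0.613% and 0.650% in wild type, compared with 0.523%, 0.178% and 0.586% in the knockout, with wild-type replicate 1 at about 2 times the other wild-type libraries. Its genotypes did not overlap, but by a margin of less than 0.03 percentage points, and its log2 fold change was -1.03 (SE 0.57, adjusted p = 0.155, limma). TRAJ24 stood at 0.777%, 0.692% and 0.481% in wild-type libraries, against 0.235%, 0.0593% and 0.586% in knockout libraries. It was the only member whose genotypes overlapped, through knockout replicate 3, and its log2 fold change of -1.54 had an adjusted p of 0.133. A single pair, TRAV21/DV12 joined to TRAJ24, made up 80% of that knockout column, which without it stood at 0.117%. Leaving out knockout replicate 3 brought TRAJ24 to -2.25 (adjusted p = 0.0283).

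Over the members, 3 of 7 were called lower, none higher, and 3 were lower at an unadjusted p under 0.05. Over all J segments 46.5% were called lower. Groups did not overlap in 6 of 7 members, with the knockout lower, against 53.5% of all J segments. The median log2 fold change was -2.08 over the members and -1.54 over the 43 J segments, and 8 of the 43 were called higher. Centring the log values of each library moves the median of the J segments to -0.08, and on that scale TRAJ28 was higher in the knockout (0.43), TRAJ24 and TRAJ26 were near the median (-0.08 and -0.30), TRAJ22 and TRAJ23 stood at -0.63 and -0.81, and TRAJ27 and TRAJ21 at -2.11 and -2.14. None of the 7 passed on the centred scale. The calls of TRAJ26, TRAJ23 and TRAJ22 were also lost when any 1 of the 3 wild-type libraries was left out (adjusted p from 0.0991 to 0.102), and those of TRAJ26 and TRAJ22 without knockout replicate 2 (0.0503 and 0.0747). Without both libraries numbered 1, TRAJ22 alone kept its call, TRAJ26 and TRAJ23 missing at 0.0950 and 0.0970.

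**Figure D2:**
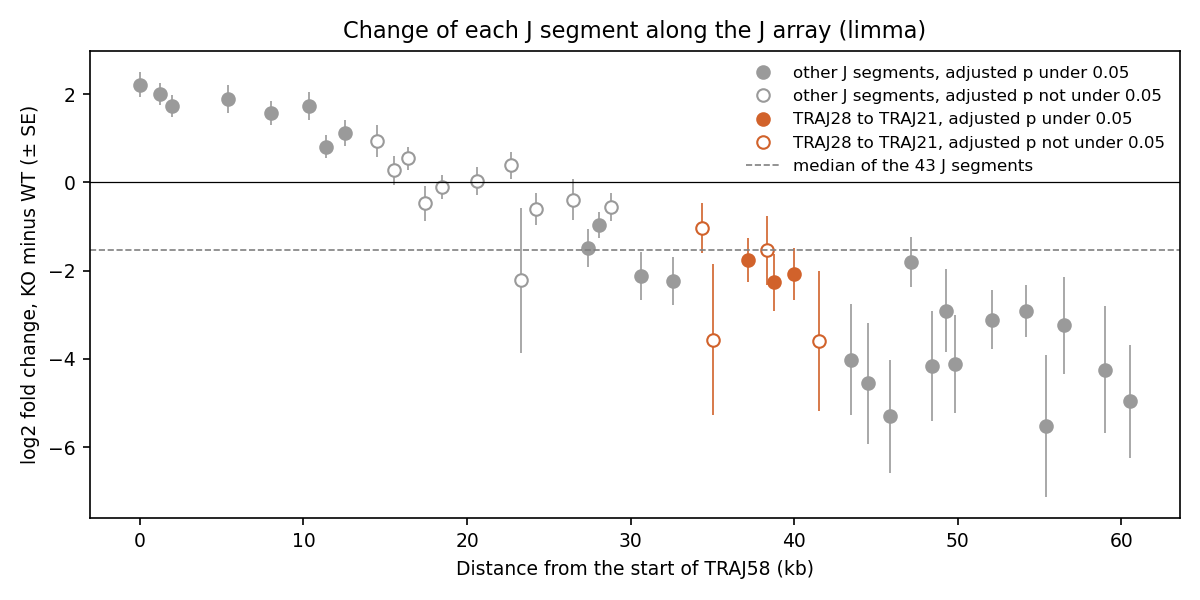
Log2 fold change of each J segment, knockout minus wild type (vertical axis, ± SE from limma, 3 libraries per genotype), against distance from the start of TRAJ58 in kb (horizontal axis); orange marks TRAJ28 to TRAJ21, filled points passed an adjusted p of 0.05, and the dashed line is the median of all 43, -1.54. The 7 members lie from -1.03 to -3.59. TRAJ30 and TRAJ31, the nearest on the left, are at -2.24 and -2.13, within that range, and on the right TRAJ18, TRAJ17 and TRAJ16 are lower, at -4.02, -4.56 and -5.31, while TRAJ15 is at -1.81.

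The window was set beside its neighbours of similar size, TRAJ37 to TRAJ30 on its 5′ side and TRAJ17 to TRAJ11 on its 3′ side. In wild type the sums were alike, 17.8% ± 2.02, 16.2% ± 0.368 and 15.1% ± 1.26 from 5′ to 3′. In the knockout they were 8.16% ± 2.11, 4.50% ± 1.74 and 2.50% ± 1.28, which is 2.18-fold, 3.60-fold and 6.02-fold lower. The log2 ratio of the window to its 5′ neighbour was 0.07, -0.13 and -0.32 in wild-type replicates 1 to 3, and -0.67, -1.31 and -0.70 in knockout replicates 1 to 3. The ratio to its 3′ neighbour was 0.09, 0.00 and 0.22 in wild type, compared with 0.71, 0.78 and 1.19 in the knockout. For both ratios the genotypes did not overlap, and the exact permutation p was 0.1 (adjusted 0.16 over 8 values). The difference between genotypes was -0.76 for the first ratio and 0.79 for the second, and -0.78 and 0.87 without both libraries numbered 1.

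**Figure D3:**
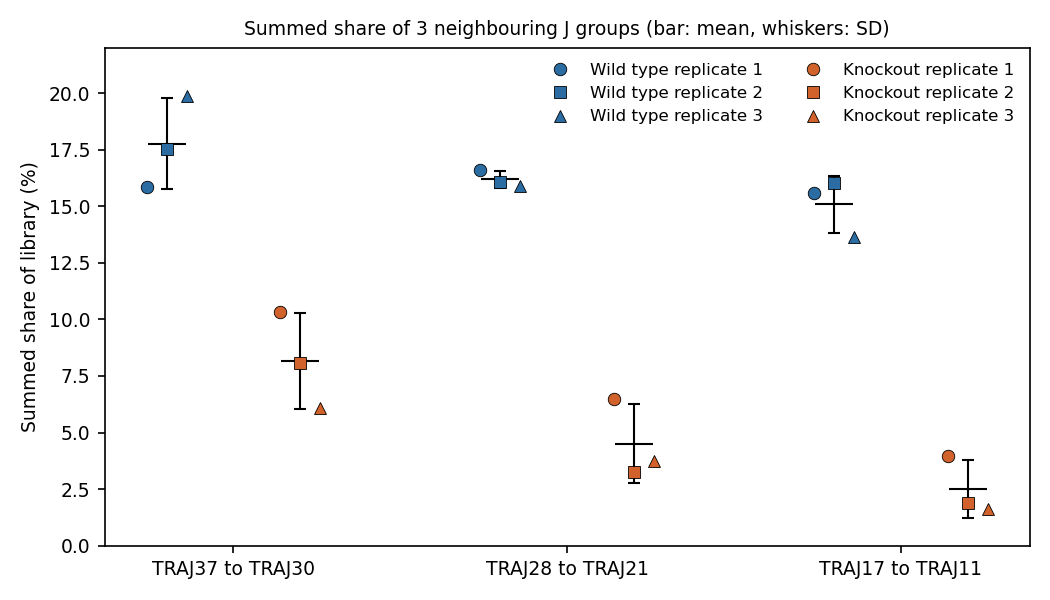
Summed share in percent of a library (vertical axis) of 3 neighbouring groups of J segments, ordered 5′ to 3′, by library (symbols) with mean and SD of n = 3. The wild-type libraries stay between 13.6% and 19.9% in all 3 groups, while the knockout means step down from 8.16% to 4.50% and 2.50%.

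Within the window no such step was resolved. TRAJ28, TRAJ27 and TRAJ26, the members on the 5′ side of the window, made up 39.9%, 43.8% and 48.3% of it in wild-type libraries, against 46.7%, 47.3% and 50.0% in knockout libraries. The genotypes overlapped, and the difference of 4.00 percentage points had an exact permutation p of 0.3 (adjusted 0.343). It was 1.96 without wild-type replicate 1, 2.62 without both libraries numbered 1, and 0.715 (exact permutation p = 0.9) when only pairs of at least 0.117% were counted. The parts of single members varied more in the knockout: TRAJ26 made up 20.6%, 41.8% and 12.5% of the window there against 17.8%, 18.2% and 25.0% in wild type. TRAJ23 made up 15.0%, 36.4% and 6.25% against 18.6%, 20.9% and 20.0%. In knockout replicate 2 these 2 segments together held most of the window. The whole window stood at 360, 55 and 32 times the smallest step in knockout replicates 1 to 3, against 1048, 1021 and 661 in wild type. In knockout replicate 3, TRAJ26 stood at 4 steps and TRAJ23 at 2. The part of resolution in the wider knockout spread was not tested.

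As a description over 6 libraries that differ in genotype and resolution, the J segments whose log2 share was most like that of the window were TRAJ9 (Pearson r = 0.980), TRAJ31 (0.980) and TRAJ16 (0.976). TRAJ9 fell from 2.54% ± 0.783 to 0.340% ± 0.289 in mean, TRAJ31 from 5.07% ± 0.247 to 1.37% ± 1.05, and TRAJ16 from 1.74% ± 0.318 to 0.108% ± 0.188. All 3 are lowest in knockout replicates 2 and 3. Among the members, TRAJ27 and TRAJ21, both at 0 in knockout replicate 2, had r = 0.993 with each other, and TRAJ26 and TRAJ23 had 0.987, while TRAJ24 and TRAJ23 had 0.208.

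In wild type the window drew on many V segments. Of the 117 V segments, 84, 90 and 82 were joined to at least 1 member in wild-type replicates 1 to 3, and 65, 28 and 17 in the knockout. At a common cut of 0.117% of the library, summed over the window, the numbers were 38, 39 and 41 against 18, 14 and 17. A window with a lower share can hold fewer V segments above a fixed percentage, so the lower knockout numbers at this cut follow in part from the share and are no separate result. When only single pairs of at least 0.117% were counted, TRAJ26 had 9 ± 4.00 V segments in wild type, compared with 3 ± 1.00 in the knockout, TRAJ28 had 1 and 1, and TRAJ24 had 0 and 0.667 on average.

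No V segment dominated the wild-type window. TRAV7D-5 led with 6.73% ± 1.24 of the window and was among the 3 leading V segments of 6 of the 7 members. It was followed by TRAV12-2 with 5.14% ± 0.809, TRAV3D-3 with 5.11% ± 1.54, TRAV12D-3 with 5.02% ± 2.72 and TRAV7-4 with 4.52% ± 0.550. Names with D or N mark near-identical copies of a segment in a repeated part of the V array, so how the authors' assignment split reads between copies bears on these values. With copies summed, TRAV7-5 supplied 9.71% ± 0.674 and TRAV12-2 7.92% ± 0.813.

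The wild-type V profiles of the members correlated to different degrees. Across the 117 V segments, the wild-type mean profiles of 2 members had Pearson correlations from 0.547 (TRAJ28 and TRAJ24) to 0.875 (TRAJ26 and TRAJ23), with a median of 0.721, as a description over V segments that share libraries. TRAJ24 and TRAJ28, the rare members, had the fewest V segments in wild type, 21 ± 5 and 21.3 ± 9.29, against 44.7 to 54.3 for the other 5. In wild-type replicates 1 to 3 their columns stood at 49, 44 and 20 and at 79, 39 and 27 times the smallest step. TRAJ26 stood at 187, 186 and 165. A column of few steps can hold fewer V segments and gives a coarser profile. The numbers and correlations of the rare members are therefore no result apart from their low share. TRAJ24 drew 48.9% ± 1.14 of its share from the distal V class and TRAJ27 27.7% ± 3.49, which were the highest and lowest wild-type means of the 7. These 2 members were picked as the extremes after the values were seen, so a gap between them was favoured in advance and is no support. This part ran from 47.7% to 50.0% for TRAJ24, on the few steps given above, and from 23.6% to 29.7% for TRAJ27. The distal class holds mostly D copies, so the split of reads between near-identical copies bears on this part too.

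The V classes are by position, delta V segments aside: 37 distal segments farthest from the J array, 36 middle and 36 proximal. Most D copies are distal and the N copies middle, so how reads were split between near-identical copies also bears on these parts. In the window TRAV16 was at 0 in every library, while its copies TRAV16D-DV11 and TRAV16N had wild-type means of 3.23% and 2.44%. Distal V segments supplied 41.6%, 36.2% and 25.6% of the window in wild type, compared with 30.0%, 18.2% and 18.8% in the knockout. These overlapped between genotypes (34.5% ± 8.16 against 22.3% ± 6.67, exact permutation p = 0.2, adjusted 0.267). In the other J columns the distal part was also lower in the knockout, 18.5% ± 3.80 against 29.7% ± 4.78 in wild type. Proximal V segments supplied 38.9%, 44.2% and 50.5% in wild-type libraries, against 51.4%, 58.2% and 53.1% in knockout libraries. Every knockout library was above every wild-type library, wild-type replicate 3 and knockout replicate 1 differing by less than 1 percentage point (44.5% ± 5.81 against 54.2% ± 3.53, exact permutation p = 0.1, adjusted 0.16).

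That proximal difference depended on dual-use V segments, those named TRAV-DV, which can be joined in alpha and in delta chains. With the 10 dual-use segments taken out of the classes, the proximal part was 37.0% ± 2.87 in wild-type libraries, against 30.5% ± 10.3 in knockout libraries, turning the difference to -6.57 percentage points with overlapping libraries (exact permutation p = 0.5). Knockout replicate 3, at 18.8%, set most of that difference, which was -0.71 without it. The dual-use segments supplied 9.06%, 10.7% and 17.2% of the window in wild type, compared with 22.2%, 20.0% and 34.4% in the knockout, without overlap. The members of the group went both ways, 5 with a higher and 5 with a lower knockout mean. TRAV21/DV12 rose most, from 0.629% to 10.8% in mean, followed by TRAV4-4-DV10 (2.65% to 7.54%) and TRAV13-4-DV7 (0.327% to 2.53%). TRAV16D-DV11 stood at 3.23% and 1.20%, TRAV14D-3-DV8 at 1.52% and 0.370% and TRAV6-7-DV9 at 3.67% and 2.82% in wild-type and knockout mean. Without TRAV21/DV12 the group supplied 8.68%, 10.4% and 16.0% in wild-type libraries and 12.8%, 12.7% and 18.8% in knockout libraries, which overlap. In the other J columns the 10 segments supplied 15.4% ± 2.40 in wild type, compared with 24.5% ± 6.47 in the knockout, and there the genotypes overlapped, with knockout replicate 2 at 17.0% below wild-type replicate 3 at 18.2%. These groupings were chosen after the values were seen and have no test.

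Delta V segments (TRDV), which lie between the alpha V segments and the J array and mostly serve delta chains, were nearly absent from the wild-type window. They supplied 0.191%, 0.294% and 0.151% of it in wild-type libraries, against 3.89%, 16.4% and 12.5% in knockout libraries. All 3 knockout libraries were above wild type, knockout replicate 1 least (0.212% ± 0.0736 against 10.9% ± 6.39, exact permutation p = 0.1, chosen after the values were seen). In wild type the part was lower in the window than in the other J columns, at 2.00% ± 0.392, in each of the 3 libraries. In the knockout the other J columns had 15.0% ± 4.97, and the window was lower in 2 of 3 libraries and about equal in knockout replicate 3 (12.5% against 12.4%). No delta V was joined to 4 of the 7 members in any wild-type library, and 6 of 7 had at least 1 in a knockout library.

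**Figure D4:**
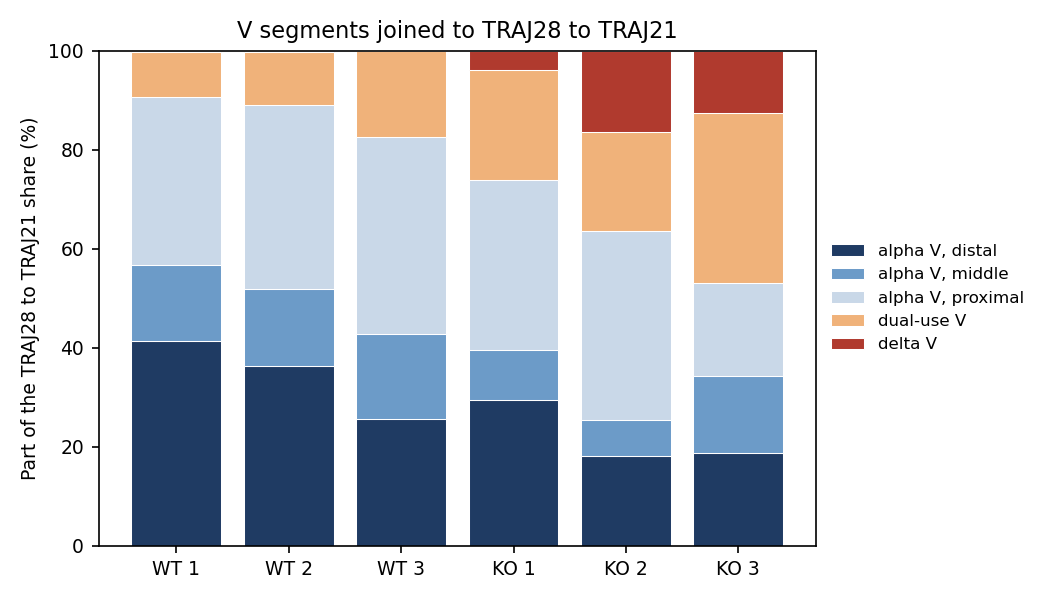
Part of the TRAJ28 to TRAJ21 share in percent (vertical axis) supplied by 5 groups of V segments in each library (bars): alpha V segments by distal, middle and proximal position without the dual-use ones, the 10 dual-use segments, and the 5 delta V segments. Dual-use and delta V segments together are the upper part of each bar, delta V from 0.151% to 0.294% in wild type and from 3.89% to 16.4% in the knockout.

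The families nearest the J array, TRAV17, TRAV19 and TRAV21/DV12, supplied 1.15%, 1.18% and 1.97% of the window in wild type, compared with 11.1%, 12.7% and 18.8% in the knockout. The genotypes stood far apart relative to their spread (1.43% ± 0.466 against 14.2% ± 4.03, exact permutation p = 0.1, adjusted 0.16). The same part was not computed for the other J columns, so this rise is not shown to be particular to the window. TRAV21/DV12 accounted for most of it: it supplied 0.382%, 0.294% and 1.21% in wild type, the 42nd V segment by mean, and 9.44%, 7.27% and 15.6% in the knockout, the first. With near-identical copies summed it was 30th in wild type and second in the knockout, after TRAV7-5 at 14.1% ± 9.41. TRDV1 went from 0.148% ± 0.0503, the 77th, to 7.53% ± 4.69, the fourth. The whole window stood at 360, 55 and 32 times the smallest step in knockout replicates 1 to 3, so the knockout ranks rest on few steps. TRAV21/DV12 with TRAJ27 alone held 25 of those steps in replicate 1, and with TRAJ24 it held 4 in replicate 3. TRAV4-4-DV10 stood at 1.43%, 1.67% and 4.84% in wild-type libraries, against 4.17%, 9.09% and 9.38% in knockout libraries, so its groups overlapped, and TRAV17 at 0.616% and 3.14% in mean.

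The leading wild-type V segments were split. TRAV7D-5 supplied 7.44%, 7.44% and 5.30% of the window in wild type, compared with 6.94%, 5.45% and 12.5% in the knockout, where it was second. TRAV12-2 supplied 1.53% ± 1.41 in the knockout, TRAV3D-3 1.62% ± 1.54, TRAV12D-3 1.30% ± 2.25 and TRAV7-4 0.833% ± 1.44. For TRAV12-2, TRAV3D-3 and TRAV7-4 every knockout library was below every wild-type library, with a 0 in knockout replicate 3, and for TRAV12D-3 the groups overlapped through knockout replicate 1. These parts of the window were given no test. The segments were taken for leading in wild type, which favours a lower knockout part. The whole window stood at 55 and 32 times the smallest step in knockout replicates 2 and 3. How many of all V segments had genotypes without overlap was not counted, so nothing is read from these falls. Without both libraries numbered 1, the part from TRAV17, TRAV19 and TRAV21/DV12 was 14.2 percentage points higher in the knockout, that from delta V 14.2 and that from proximal V 8.30, while that from distal V fell by 12.4.

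**Figure D5:**
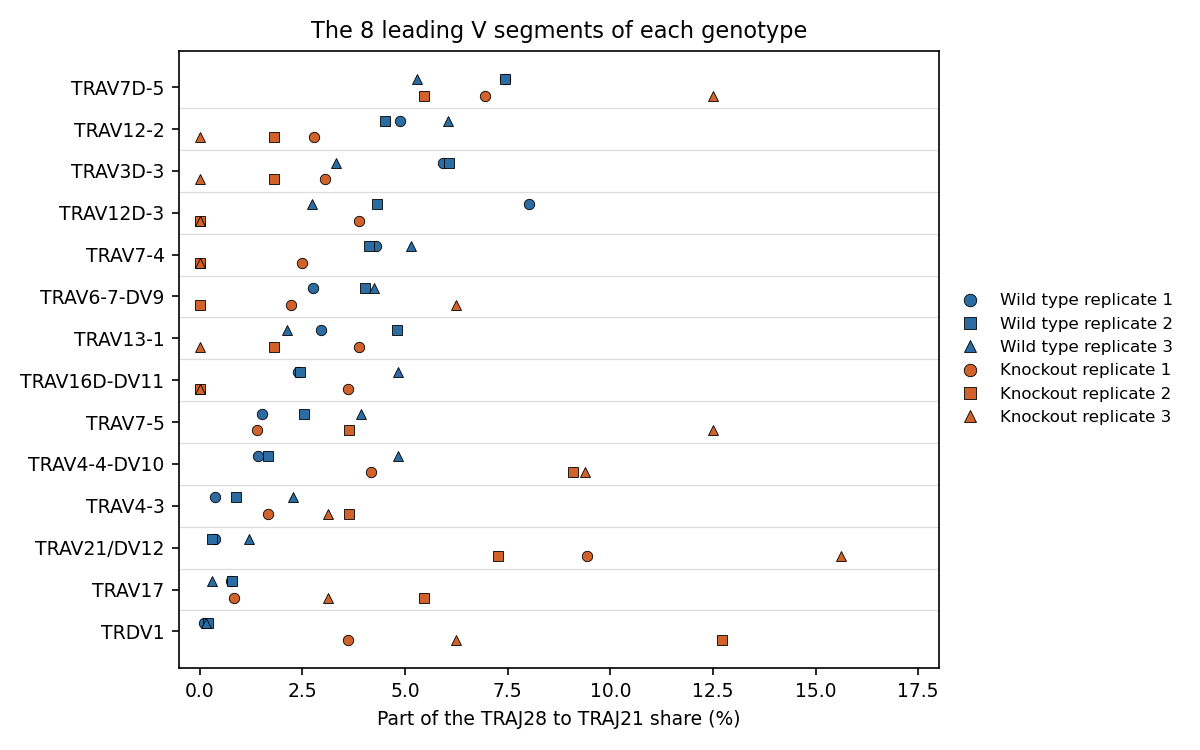
Part of the TRAJ28 to TRAJ21 share in percent (horizontal axis) supplied by the 8 leading V segments of each genotype (rows, ordered by wild-type mean), by library (symbols). TRAV21/DV12 and TRDV1 lie under 1.3% in all wild-type libraries and above 3.5% in all knockout libraries, while TRAV12-2 and TRAV7-4 lie to the left in the knockout.

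The proximal part of the window was also set against that of the other J columns within each library. The window minus the other columns gave -9.81, -5.85 and -8.20 percentage points in wild type, so the wild-type window took less from proximal V segments than other columns did in 3 of 3 libraries. The same difference was -7.91, 10.7 and -10.8 in knockout replicates 1 to 3, so replicate 2 alone had more proximal V in the window. The genotypes overlapped (exact permutation p = 0.8), and without knockout replicate 2 the difference between genotypes turned from 5.26 to -1.41. Without both libraries numbered 1 it was 6.94.

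Of the 819 V–J cells of the 7 columns, 481 were above 0 in at least 1 library. The wild-type libraries held 321, 312 and 247 of them and the knockout libraries 185, 41 and 23. Pairs seen in all 3 wild-type libraries numbered 142, and pairs seen in all 3 knockout libraries 3. Only TRAV13-4-DV7 with TRAJ26 was seen in all 6, at 0.0158%, 0.0157% and 0.0241% in wild-type libraries, against 0.0541%, 0.0593% and 0.117% in knockout libraries. All of these except 0.0541% in knockout replicate 1 are the smallest step of their library, so the levels cannot be compared apart from resolution. The window was thus widely sampled in wild type, while the knockout repertoire of these segments was mostly seen in 1 library at a time. Knockout replicates 2 and 3 had the coarsest steps, 0.0593% and 0.117%, whose part in this was not tested.

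A mean of at least 0.1% over the 6 libraries was reached by 8 pairs of the window, of which 4 were called lower and none higher in limma over all 202 pairs tested. Over all tested pairs 12.9% were called lower and 22.8% higher. With a low share in the knockout, most pairs of the window could pass that filter only through wild type, so the count supports nothing about the window. TRAV7-4 with TRAJ27 stood at 0.111%, 0.236% and 0.265% in wild type, and no knockout library listed it above 0 (adjusted p = 0.00883). TRAV7D-5 with TRAJ26 stood at 0.127%, 0.425% and 0.168% in wild type and at 0.0180% in knockout replicate 1, and was at 0 in the other two (adjusted p = 0.0180).

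TRAV12-2 with TRAJ26 (0.207% ± 0.101 in wild type) and TRAV6-7-DV9 with TRAJ26 (0.177% ± 0.0579) also passed, with adjusted p-values of 0.0314 and 0.0323. Each had 0.0722% in knockout replicate 1 and 0 in the others. For all 3 TRAJ26 pairs the knockout share thus came from the library that shares pairs with wild-type replicate 1. That library also has the finest step of the knockout libraries, 0.0180%. Knockout replicate 3, whose step is 0.117%, can list a pair this low only at 0 or at 0.117% or more. The other 4 tested pairs, all with TRAV7D-5 or TRAV3D-3, also had a lower knockout mean and did not pass (adjusted p from 0.0894 to 0.263). Leaving out 1 library at a time left from 0 calls (without wild-type replicate 2) to 4. Leaving out wild-type replicate 1 or 3 left 2, and knockout replicate 2 left 1.

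Complete absence was counted among pairs whose wild-type mean was at least 0.117%, the coarsest step. Of 28 such pairs of the window, 5 (17.9%) were at 0 in every knockout library, and the share over all such pairs was 6.33%. Nothing is read from that difference, since pairs were taken by their wild-type mean and the whole window is lower in the knockout. They were TRAV12D-3 with TRAJ23, and TRAV3D-3, TRAV16D-DV11, TRAV16N and TRAV7-4 with TRAJ27. TRAJ27 held 4 of the 5, all of which had to be 0 in knockout replicate 2, where its whole column was.

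In each knockout library the 2 largest pairs of the window joined a dual-use or delta V segment. TRAV21/DV12 was joined to each of the 7 members in some knockout library, and its largest joins differed by library. With TRAJ27 it made up 0.451% of knockout replicate 1, 38.5% of that column, and was at 0 in the other knockout libraries. With TRAJ24 it made up 0.469% of knockout replicate 3, and with TRAJ23 it appeared in all 3 at 0.0541%, 0.119% and 0.117%, against 0.0481% in wild-type replicate 3 alone.

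TRDV1 with TRAJ26 was at 0 in all wild-type libraries, at 0.0902% and 0.297% in knockout replicates 1 and 2, and at 0 in replicate 3. In knockout replicate 2, TRDV1 was also the sole partner of TRAJ24, at the smallest step of that library. TRDV1 was joined to 2 members in wild type and to 5 in the knockout. TRAV4-4-DV10 made up 0.297% of knockout replicate 2 with TRAJ23, 25.0% of that column, and 0.352% of knockout replicate 3 with TRAJ21, 50.0% of that column. In knockout replicate 3, where the whole window stood at 32 times the smallest step of the library, 1 pair made up as much as 80% of a member's share.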

How the data were processed

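Each of the 6 Tcra tables is in percent as the authors deposited it, and its cells sum to 100. The submitters' processing notes name fastp; aligner, segment caller and build, and whether reads or clonotypes were counted, are not given in the sources. All values were whole multiples, within 0.01, of the smallest value of their library, but counts were not inferred.

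J shares are column sums. Features averaging 0.1% or more over the 6 libraries entered limma 3.58.1 (R 4.3.3) on log2(percent + 0.0157), the pseudocount being the smallest value of the finest library, over all 43 J segments or 202 pairs, with Benjamini-Hochberg adjustment and a threshold of 0.05. The fit was also run on simulated data with 20% of features changed, in both directions. Those settings differ from these libraries, so that run is no support for the calls. For 8 single values an exact permutation test, two-sided, ran over the 20 arrangements in scipy 1.17.1. Positions and sequences came from GENCODE M21, which matched 114 of 117 V and 43 of 43 J segments by name. On the log2(percent + pseudocount) scale a fold change of a low or absent segment depends on the pseudocount, and where 1 library is at 0 it can exceed that of the means.

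The members are set by name alone, but the window, V classes, tests and alternatives were proposed with earlier results of these data known. The named segments are the 7 members, the 3 leading V segments of each member per genotype, the called pairs and the 3 J segments most like the window. Further pairs and V segments (TRAV13-4-DV7, the dual-use and delta V groups, pairs at 0 in the knockout) were named after their values were seen. Alternatives covered the pseudocount, filter, centring, variance trend, left-out libraries, a replicate block, counting pairs once, resolution and V classes.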

Additional observations from a re-analysis of the deposited data

How the results depend on the processing

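The window share, its ratios to both neighbouring groups and the parts from TRAV17, TRAV19 and TRAV21/DV12 and from distal V kept their direction under every alternative run. The part from TRAJ28 to TRAJ26 stayed positive but moved from 4.00 to between 0.715 (coarsest step) and 6.15 percentage points. The 28 called J segments (8 higher, 20 lower) became 0 to 28 with 1 library left out, 17 without both libraries numbered 1, and 0 with each pair counted once. Centring gave 12 higher and 9 lower J segments. The 3 called members became 5 with the larger pseudocount and 5 with a variance trend, 0 with centred log-ratios, 1 without both libraries numbered 1, 0 with pairs counted once, and 0 to 4 with 1 library left out. The 72 called pairs (46 higher, 26 lower) became 36 with centring (9 higher, 27 lower), 140 without the filter, 30 without both libraries numbered 1 and 7 to 69 with 1 library left out. The 4 called pairs of the window became 23 without the filter, 15 with V copies summed (added after seeing the data) and 0 to 4 with 1 library left out. Members with groups that did not overlap went from 6 to 1 with centring. With dual-use V segments left out of the classes but kept in the totals, the proximal difference turned to -6.57 percentage points. The window's proximal part minus that of other columns then differed by -0.30 between genotypes. With the dual-use segments kept in the classes, this latter difference was 5.26, and -1.41 to 9.33 with 1 library left out. TRAJ28 turned to 0.43 with centring, and the number of V segments of TRAJ24 to 0.667 at the coarsest step. Apart from centring and fewer samples, the cause was not tested.

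Whether replicate numbers pair the libraries is not settled. Over J segments, residuals of equal numbers correlated at 0.226, -0.20 and 0.274, and wild-type 2 with knockout 1 reached 0.532. Over pairs, equal numbers gave 0.0634, 0.135 and 0.170, and all other combinations were lower, from -0.157 to 0.0356. With a replicate block 21 J segments (6 higher, 15 lower), 2 members, 84 pairs and 5 pairs of the window were called, TRAJ26 missing at an adjusted p of 0.0658; the window share differed by -11.7 percentage points with an exact sign-flip permutation p of 0.25, the smallest that 8 sign changes allow. Depth is unknown, and knockout replicate 3 can list no nonzero value under 0.117%.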
